A study of Mus musculus with 23 samples.

Results

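Aif1 and 9 further genes of myeloid and Langerhans cells were followed through the circumvallate papilla of lean, obese and energy-restricted obese mice. The 10 genes are Aif1, Itgax, Cd207, Ptprc, Adgre1, Mpeg1, Tyrobp, C1qa, C1qb and C1qc, out of 28209 genes that the arrays measured. Each was found by its gene name in the array's own annotation, where Adgre1 carries its older name Emr1, and was read from its brightest probe. Aif1 was chosen by its log2 difference between DIO and Lean in these same samples, so that difference is described here and not tested; the other 9 were selected as myeloid genes with results of these samples known.

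The tissue is the taste papilla that lies across the back of the tongue, and 23 samples of it were hybridised to 1-colour Agilent arrays. All mice were male C57Bl6/j. The 7 Lean samples came from mice on a chow with 3% fat by weight. The 8 DIO samples came from mice made obese on a diet high in saturated fat, without restriction. The 8 DIO-R samples are taken here to be DIO mice given 60% of the energy eaten ad libitum, since the labels use the abbreviation without defining it. Age, the length of the diets and whether each sample is 1 animal are not given in the sources used here. What the p-values measure is thus the spread among the samples, some of which may be technical. A sample is a piece of whole epithelium, in which markers of the tissue beneath it were present too. Fewer cells of a type and less RNA per cell thus cannot be told apart.

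Macrophages and dendritic cells are the resident phagocytes and antigen-presenting cells of a tissue, and Langerhans cells are the myeloid cells that live within a stratified epithelium such as that of the tongue. Aif1 encodes Iba1, a calcium-binding protein that bundles actin in macrophages and microglia. Itgax encodes CD11c, an integrin chain of dendritic cells that some macrophages also carry, and Cd207 encodes langerin, the lectin of Birbeck granules in Langerhans cells. Ptprc encodes CD45, the phosphatase found on leukocytes in general. Adgre1 encodes a classical surface marker of mouse macrophages, and Mpeg1 encodes perforin-2, a pore-forming protein of phagocytes. Tyrobp encodes DAP12, the adaptor through which several myeloid receptors signal, and C1qa, C1qb and C1qc encode the 3 chains of C1q, the recognition unit of the classical complement pathway, which macrophages make.

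Each gene was represented by a probe of 60 bases, and the first 30 bases of 6 of them are given 5′ to 3′ below, because the comparisons turn on whether Aif1 and Itgax and the 3 C1q chains were read separately. Positions are those of build mm9 in the array's annotation. The first sequence lies on the minus strand at chr17:35307959-35308018, the second on the plus strand at chr7:135294052-135294111, and the third on the plus strand at chr7:31200651-31202378, a range longer than the probe. The C1q probes lie on the minus strand at chr4:136452409-136452468, chr4:136436578-136436637 and chr4:136445766-136445825, beside one another. Exon and UTR boundaries of this build were not used here.
Aif1: gagcttctgatgacagcagcatggaaaaaa
Itgax: tcccatctacttttgcaacgttggaattga
Tyrobp: ggacccggaaacaacacattgctgagactg
C1qa: ccggccagctttctcagccattcggcagaa
C1qb: attctggggactacggggctacacagaaag
C1qc: tctgggaaccacctaatggtattattcctg
The longest run of bases shared by any pair of the 10 probes was 10, between Itgax and Tyrobp, and no pair of C1q probes shared more than 6. Every probe of a member was well above background on all 23 arrays. Adgre1 and Mpeg1 had a second probe each, given beside their results. C1qc was printed in 10 spots per array, whose log2 values had a median SD of 0.06 within an array against an SD of 0.31 between arrays of a group.

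The sequence just before the transcription start was looked at for the members because they tended to vary together, Cd207 the least. The RefSeq table of build GRCm38.p6 held 7 of the 10 genes. The PU box GAGGAA, a core motif bound by the myeloid factor PU.1, was searched on both strands (as GAGGAA or TTCCTC) in the 250 bases before the start. It occurred in 5 of their 8 promoters, since Ptprc has 2 and 1 of these lacks it, and in 23.3% of 32851 promoters in the table. The promoters of Itgax and Mpeg1 lacked it as well. Whether the box goes with the members' varying together was not tested. Shown are 100 bases around the box of 3 genes, each on the minus strand and read 5′ to 3′ on the strand of the gene, with the box in capitals: Aif1 at chr17:35176053-35176152, C1qb at chr4:136886201-136886300 and Cd207 at chr6:83677886-83677985.
Aif1: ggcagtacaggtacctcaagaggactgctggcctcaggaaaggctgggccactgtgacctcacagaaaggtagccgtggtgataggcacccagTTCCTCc
C1qb: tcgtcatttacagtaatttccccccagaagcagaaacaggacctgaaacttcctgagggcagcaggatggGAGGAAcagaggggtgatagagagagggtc
Cd207: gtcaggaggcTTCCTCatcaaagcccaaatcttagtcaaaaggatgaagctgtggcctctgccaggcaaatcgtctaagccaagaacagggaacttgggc
The box began 7 bases before the start of Aif1, 30 bases before that of C1qb and 118 bases before that of Cd207. A match of 6 letters is a description of the sequence, not evidence of binding.

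The arrays were alike in coverage, with 66.87% to 78.41% of probes well above background, and they lay on 3 slides that each held every group. Markers of the papilla were present: all 12 taste cell markers, all 16 markers of differentiated keratinocytes and all 9 of basal keratinocytes were well above background on all arrays. So were all 12 fibroblast, 10 endothelial, 12 skeletal muscle and 7 Schwann cell markers, although the epithelium had been peeled from the tissue beneath it. Of the other leukocyte lists, 30 of the 34 macrophage and monocyte genes on the array were well above background on all arrays. The same held for 23 of 28 dendritic and Langerhans cell genes, against 15 of 18 T cell and NK cell markers and 6 of 11 B cell markers. Lean 9 and DIO-R 6 were the lowest samples of their group for the mean of 22 pan-leukocyte genes and DIO 10 was the highest of DIO, so results that rest on these 3 samples are also given without them.

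Levels are log2 intensities minus the 75th percentile of the array, so a level of 0 is that percentile and 1 unit is a doubling. Levels are compared between samples for 1 gene and not between genes, since probes differ in brightness. Differences between groups come from a limma fit of all 23 samples with Benjamini-Hochberg adjustment over 28209 genes, with 0.05 as the limit for an adjusted p.

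Aif1 levels lay between -0.04 and 0.67 in Lean (median 0.35), between 1.12 and 1.79 in DIO (median 1.24) and between 0.31 and 1.16 in DIO-R (median 0.99). Every DIO sample lay above every Lean sample, and DIO-R overlapped both other groups while holding 6 of its 8 samples above the highest Lean sample. The mean level was 1.30 ± 0.21 in DIO (SD, n = 8) and 0.35 ± 0.27 in Lean (SD, n = 7), a log2 difference of 0.95 ± 0.13 (SE) or 1.93-fold, which is the value that chose the gene. In DIO-R the mean was 0.88 ± 0.28 (SD, n = 8), with all 8 samples below the DIO mean. The restricted group thus lay 0.42 ± 0.13 below DIO on the log2 scale, which did not pass (adjusted p = 0.409, limma), and 0.53 ± 0.13 above Lean, which did not pass either (adjusted p = 0.137, limma). Without DIO-R 6, the lowest sample of its group, the second of these differences was 0.62 and passed (adjusted p = 0.033, limma), while over all other settings tried its adjusted p lay between 0.018 and 0.477. Both comparisons reuse samples whose Aif1 levels entered the choice of the gene, DIO in the first and Lean in the second, so neither p is independent of that choice. Within slides 1, 2 and 3, DIO-R lay below DIO by 0.52, 0.51 and 0.30.

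**Figure D1:**
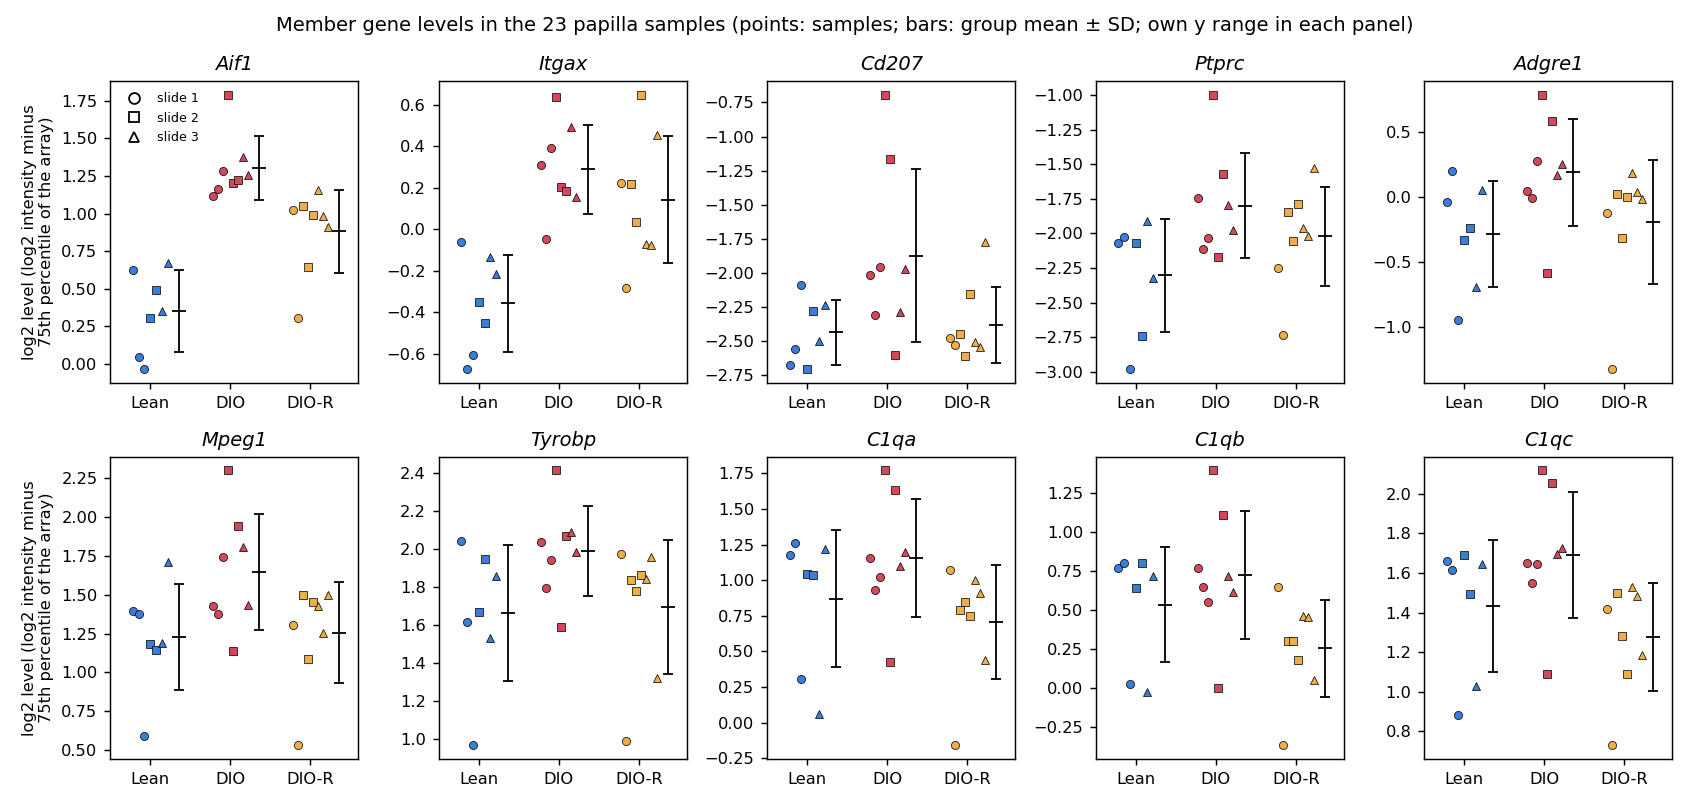
Log2 level (y axis, log2 intensity minus the array's 75th percentile) of each of the 10 genes in each Lean, DIO and DIO-R sample; marker shapes are the 3 slides and bars are the group mean ± SD. Aif1 and Itgax are the panels in which no DIO sample overlaps a Lean sample, and DIO 10 is the highest DIO sample in every panel.

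Itgax and Cd207, the dendritic and Langerhans cell genes, came next in size among the differences between DIO and Lean. Itgax ranged from -0.68 to -0.06 in Lean (median -0.35), from -0.05 to 0.64 in DIO (median 0.26) and from -0.28 to 0.65 in DIO-R (median 0.12). Again no DIO sample fell within the Lean range, although the closest samples were 0.01 apart. DIO-R reached past both ends of the DIO range and overlapped Lean as well. The difference of DIO from Lean was 0.65 ± 0.13 (SE), or 1.57-fold, with an adjusted p of 0.0975 in limma that missed the threshold, at rank 17 of 28209 genes. DIO-R lay 0.15 ± 0.13 below DIO (adjusted p = 0.684, limma) and 0.50 ± 0.13 above Lean (adjusted p = 0.177, limma), with 8 of 8 samples above the Lean mean.

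Cd207 ranged from -2.71 to -2.08 in Lean (median -2.50), from -2.60 to -0.69 in DIO (median -1.99) and from -2.60 to -1.77 in DIO-R (median -2.49). DIO samples were spread widely, with an SD of 0.63 against 0.24 in Lean and 0.28 in DIO-R, and 5 of the 8 lay above the highest Lean sample. The DIO mean was 0.56 ± 0.22 above Lean (adjusted p = 0.433, limma). DIO-R lay 0.50 ± 0.21 below DIO (adjusted p = 0.492, limma) and within 0.06 of Lean, with a 95% interval of -0.39 to 0.50 for the latter. Without DIO 10, which had the highest Cd207 level, DIO exceeded Lean by 0.39 and DIO-R lay 0.34 below DIO.

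Ptprc, the general leukocyte gene, ranged from -2.98 to -1.91 in Lean (median -2.07), from -2.17 to -0.999 in DIO (median -1.88) and from -2.73 to -1.52 in DIO-R (median -1.99). The 3 ranges overlapped, and the lowest samples of Lean and DIO-R were Lean 9 and DIO-R 6. DIO was 0.50 ± 0.19 above Lean (adjusted p = 0.427, limma), with 8 of 8 samples above the Lean mean. DIO-R lay between them, 0.22 ± 0.19 below DIO (adjusted p = 0.673, limma) and 0.28 ± 0.19 above Lean (adjusted p = 0.69, limma). On slide 3 the order of DIO-R and DIO was turned, at 0.05.

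The macrophage genes Adgre1 and Mpeg1 gave much the same picture as each other. Adgre1 ranged from -0.95 to 0.20 in Lean (median -0.24), from -0.59 to 0.79 in DIO (median 0.21) and from -1.33 to 0.18 in DIO-R (median -0.01). Mpeg1 ranged from 0.59 to 1.71 in Lean (median 1.19), from 1.14 to 2.30 in DIO (median 1.59) and from 0.53 to 1.501 in DIO-R (median 1.37). The groups overlapped for both genes, and DIO-R 6 stood well below the other DIO-R samples in each.

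Adgre1 was 0.48 ± 0.22 higher in DIO than in Lean (adjusted p = 0.531, limma) and 0.38 ± 0.21 lower in DIO-R than in DIO (adjusted p = 0.546, limma). Mpeg1 was 0.42 ± 0.18 higher in DIO than in Lean (adjusted p = 0.477, limma) and 0.39 ± 0.17 lower in DIO-R than in DIO (adjusted p = 0.499, limma). For both, none of the 8 DIO-R samples reached the DIO mean, and the differences of DIO-R from Lean were 0.09 and 0.03. The second Adgre1 probe gave differences of 0.42 for DIO from Lean and -0.47 for DIO-R from DIO. The second Mpeg1 probe, with a mean level of -3.98 the dimmer of its pair, gave 0.28 and -0.23.

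Tyrobp, the signalling adaptor, ranged from 0.97 to 2.04 in Lean (median 1.67), from 1.59 to 2.42 in DIO (median 2.01) and from 0.99 to 1.98 in DIO-R (median 1.84). Its DIO mean was 0.33 ± 0.16 above Lean (adjusted p = 0.573, limma), and DIO-R lay 0.29 ± 0.16 below DIO (adjusted p = 0.536, limma). All 8 DIO-R samples lay below the DIO mean, and DIO-R differed from Lean by 0.03 with a 95% interval of -0.30 to 0.37.

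C1qa ranged from 0.06 to 1.26 in Lean (median 1.04), from 0.42 to 1.77 in DIO (median 1.13) and from -0.16 to 1.07 in DIO-R (median 0.82). C1qb ranged from -0.03 to 0.81 in Lean (median 0.72), from 0.00 to 1.40 in DIO (median 0.68) and from -0.37 to 0.65 in DIO-R (median 0.30). C1qc ranged from 0.89 to 1.69 in Lean (median 1.62), from 1.09 to 2.12 in DIO (median 1.67) and from 0.73 to 1.53 in DIO-R (median 1.35). In each, the Lean and DIO medians were close, DIO-R had the lowest median, and the ranges overlapped.

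DIO exceeded Lean by 0.28 ± 0.22 for C1qa, 0.19 ± 0.18 for C1qb and 0.26 ± 0.16 for C1qc (adjusted p = 0.767, 0.828 and 0.668, limma). DIO-R lay below DIO by 0.45 ± 0.21, 0.47 ± 0.18 and 0.41 ± 0.15 (adjusted p = 0.506, 0.48 and 0.48, limma), with 0 of 8 samples above the DIO mean for each chain. DIO-R also lay below Lean, by 0.16, 0.28 and 0.15, which did not pass (adjusted p = 0.834, 0.677 and 0.787, limma). Without DIO-R 6 the C1qa difference from Lean was -0.04, that of C1qb -0.19 and that of C1qc -0.08, and within slide 3 these differences were 0.14, -0.02 and 0.06. Within each of the 3 slides DIO-R was below DIO for every chain, by 0.31 to 0.58.

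Across the members, all 10 differences of DIO from Lean were above 0, as were 41.1% of all genes. Of the 9 members besides Aif1, 0 passed in limma. Of all genes 0.00354% did, which is 1 gene, Aif1 itself. Since Aif1 was chosen by this difference, that pass is no test of it. Of the same 9 members, 5 had an unadjusted p under 0.05 and a higher DIO mean, as did 4.06% of genes. None was lower at that level, as were 4.9% of genes. The 5 were Itgax, Cd207, Ptprc, Adgre1 and Mpeg1. DIO and Lean did not overlap, DIO being higher, for Aif1 and Itgax and for 0.0744% of all genes. The median difference of the 10 members was 0.45, beside -0.04 over all genes.

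All 10 differences of DIO-R from DIO were below 0, as were 48.4% of all genes. In limma 0 of 10 members passed, where 0.0603% of genes did, and 6 had an unadjusted p under 0.05 with DIO-R lower, as did 3.78% of genes, while none was higher at that level, as were 5.94%. The 6 were Aif1, Cd207, Mpeg1, C1qa, C1qb and C1qc. The members' median was -0.40, beside 0.01 over all genes. This comparison uses the same DIO samples as the one with Lean, so a DIO sample that is high moves both.

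Of the differences of DIO-R from Lean, 7 of 10 were above 0, as were 44.5% of genes, with a median of 0.04 beside -0.02 over all genes. In limma 0 members passed, where 0.128% of genes did, and 2 had an unadjusted p under 0.05 with DIO-R higher, Aif1 and Itgax, as did 4.43% of genes, and none was lower at that level, as were 4.51%. For these genes the mean of DIO-R was nearer to that of DIO than to that of Lean, Ptprc was about midway, and the other 7 were nearer to Lean or below it.

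**Figure D2:**
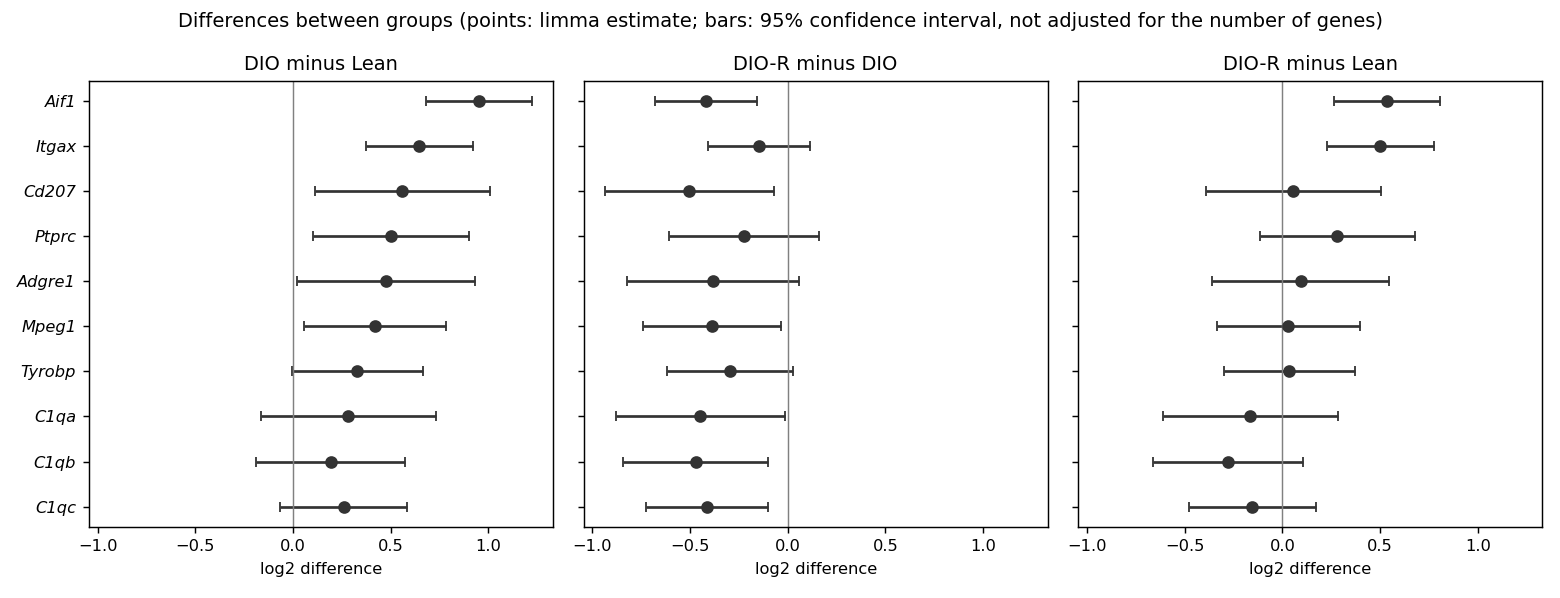
Log2 difference (x axis) of each gene in the 3 comparisons, with the limma estimate as a point and its 95% interval as a bar, not adjusted for the number of genes. All points lie right of 0 for DIO minus Lean and left of 0 for DIO-R minus DIO, and for DIO-R minus Lean the intervals of Aif1 and Itgax alone leave out 0.

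Without Lean 9, DIO 10 and DIO-R 6, a choice made after seeing the data, Aif1 still differed between DIO and Lean by 0.82, Itgax by 0.56 and Cd207 by 0.45. The other 7 members then differed by 0.01 (C1qb) to 0.28 (Adgre1). The differences of DIO-R from DIO then lay between -0.01 (Ptprc) and -0.31 (Cd207), with Aif1 at -0.27. That of Aif1 from Lean in DIO-R was then 0.55 (adjusted p = 0.0324, limma), a p not independent of the choice of Aif1. For the pan-leukocyte mean the 3 samples were the lowest of Lean and DIO-R and the highest of DIO. Leaving them out tends to narrow the differences of DIO from the other groups. DIO 3, the lowest DIO sample for that mean, was kept. With DIO 3 alone left out, DIO exceeded Lean by 0.59 for Adgre1, 0.39 for C1qa, 0.30 for C1qb and 0.35 for C1qc. For Cd207 the difference fell to 0.46.

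Other genes of these cells were read from lists written with earlier results known. Aif1 apart, whose difference between DIO and Lean is not tested, no gene of the lists below passed in limma in any comparison. The counts below are to be read beside those over all genes: 41.1% were higher in DIO than in Lean, with 4.06% higher and 4.9% lower at an unadjusted p under 0.05, 48.4% were lower in DIO-R than in DIO, with 3.78% at that level, and 44.5% were higher in DIO-R than in Lean, with 4.43% at that level. Of 34 macrophage and monocyte genes, 22 were higher and 12 lower in DIO than in Lean, with a median of 0.10, and 6 against 1 had an unadjusted p under 0.05. The Fc receptor gene Fcgr1 differed by 0.75 ± 0.21 (adjusted p = 0.25, limma). Cx3cr1, the fractalkine receptor, differed by 0.54 ± 0.17 (adjusted p = 0.339, limma), and Ly86, a partner of a Toll-like receptor homologue, by 0.51 ± 0.14 (adjusted p = 0.226, limma). Irf8, a transcription factor of myeloid and dendritic cells, differed by 0.48 ± 0.15 (adjusted p = 0.317, limma). In DIO-R 25 of the 34 lay below DIO, with a median of -0.15, and Ctss, a lysosomal protease of antigen-presenting cells, had the smallest p of the list at -0.48 ± 0.14 (adjusted p = 0.371, limma).

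Of 25 dendritic and Langerhans cell genes, 19 were higher in DIO than in Lean, 10 of them at an unadjusted p under 0.05 and none lower at that level, with a median of 0.17. Ccr7, the receptor that guides dendritic cells to lymph nodes, differed by 0.73 ± 0.21 (adjusted p = 0.263, limma). The MHC class II chain gene H2-Aa differed by 0.72 ± 0.24 (adjusted p = 0.362, limma), Clec9a, a receptor of cross-presenting dendritic cells, by 0.63 ± 0.20 (adjusted p = 0.349, limma), and Cd74, the invariant chain, by 0.56 ± 0.18 (adjusted p = 0.352, limma). In DIO-R 18 of the 25 lay below DIO, with Ccr7 at -0.68, H2-Aa at -0.57 and Cd74 at -0.51, and 4 had an unadjusted p under 0.05. Against Lean, DIO-R then differed by 0.06 for Ccr7, 0.05 for Cd74, 0.15 for H2-Aa and 0.38 for Clec9a, and 17 of the 25 were higher, 5 of them at an unadjusted p under 0.05 against 1 lower.

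Of 21 partners of Tyrobp and parts of the signalling path below it, 15 were higher in DIO than in Lean, with a median of 0.14 and 4 at an unadjusted p under 0.05. Lat2, a linker protein of that path, differed by 0.45 ± 0.10 (adjusted p = 0.162, limma) and stayed 0.36 ± 0.10 above Lean in DIO-R (adjusted p = 0.228, limma). The kinase gene Lyn differed from Lean by 0.31 ± 0.12 in DIO (adjusted p = 0.467, limma). None of the 21 had an unadjusted p under 0.05 between DIO-R and DIO, where 14 were lower and 7 higher.

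Among 20 complement components and receptors besides C1q, 15 were higher in DIO than in Lean (median 0.16), 2 at an unadjusted p under 0.05 against 1 lower. Cfb, a factor of the alternative pathway, differed by 0.56 ± 0.24 (adjusted p = 0.485, limma), and Vsig4, a complement receptor of resident macrophages, went the other way at -0.66 ± 0.27 (adjusted p = 0.472, limma). In DIO-R 17 of the 20 were below DIO (median -0.22), 1 of them, the C3a receptor gene C3ar1, at an unadjusted p under 0.05 with -0.47 ± 0.20 (adjusted p = 0.492, limma).

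Signals that recruit or sustain these cells were listed too. Of 18, 12 were higher in DIO than in Lean and 17 were higher in DIO-R than in Lean, with medians of 0.08 and 0.12. The monocyte chemokine gene Ccl7 differed from Lean by 0.97 ± 0.31 in DIO (adjusted p = 0.34, limma) and by 1.25 ± 0.31 in DIO-R (adjusted p = 0.149, limma). Ccl2, of the same family, differed by 0.77 and 1.02. Csf2, the gene of GM-CSF, was 1.03 ± 0.35 higher in DIO-R than in DIO (adjusted p = 0.45, limma), and Csf2ra, a chain of its receptor, was 0.51 ± 0.15 higher in DIO than in Lean (adjusted p = 0.287, limma).

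Of 19 genes for the phagocyte pore and lysosome, 8 were higher and 11 lower in DIO than in Lean, with a median of 0.00. The lysosomal protease gene Ctsd, for example, was 0.28 ± 0.11 lower in DIO (adjusted p = 0.423, limma). Aif1 lies in the MHC class III region of chromosome 17, and of 19 genes listed there, Aif1 included, 12 were higher and 7 lower in DIO than in Lean, with a median of 0.03. Its neighbour Ltb, the lymphotoxin beta gene, differed by 0.47 ± 0.20 (adjusted p = 0.485, limma), and Ly6g6c by -0.41 ± 0.16 (adjusted p = 0.436, limma).

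The members were next correlated with Aif1 over samples. Because Aif1 separates DIO from Lean, the group mean was first taken from every value, and r over the 23 deviations is given as a description with no p. The deviations share array, depth of signal and cell content of the dissected piece. Mpeg1 followed Aif1 most closely, with r = 0.801, then Tyrobp (0.794), Adgre1 (0.701), Itgax (0.641), C1qc (0.633), C1qb (0.606), C1qa (0.595) and Ptprc (0.563). Cd207 was the least alike, with r = 0.302.

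Read against all 28195 other genes with a value on every array, the median r with Aif1 was -0.0674 and 4.8% of genes exceeded 0.5, as did 8 of the 9 members. Only 25 genes had an r above that of Mpeg1, which ranked 26, and Tyrobp ranked 35, while 14.8% of genes lay above Cd207. Without DIO-R 6 and DIO 10, the samples farthest from their group mean for Aif1, r was 0.66 for Mpeg1, 0.679 for Tyrobp, 0.492 for Itgax, 0.487 for Adgre1, 0.461 for C1qc, 0.383 for C1qb, 0.369 for C1qa, 0.257 for Ptprc and 0.000919 for Cd207. In that setting 2 of the 9 members exceeded 0.5, in place of 8. The share of all genes above 0.5 was not computed there, so the fall cannot be read as particular to the members. For Cd52, the gene most like Aif1, r also fell, from 0.915 to 0.852. Within slide 3 the r of Itgax was -0.211 and that of Ptprc -0.246, while both were above 0.5 within slides 1 and 2.

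**Figure D3:**
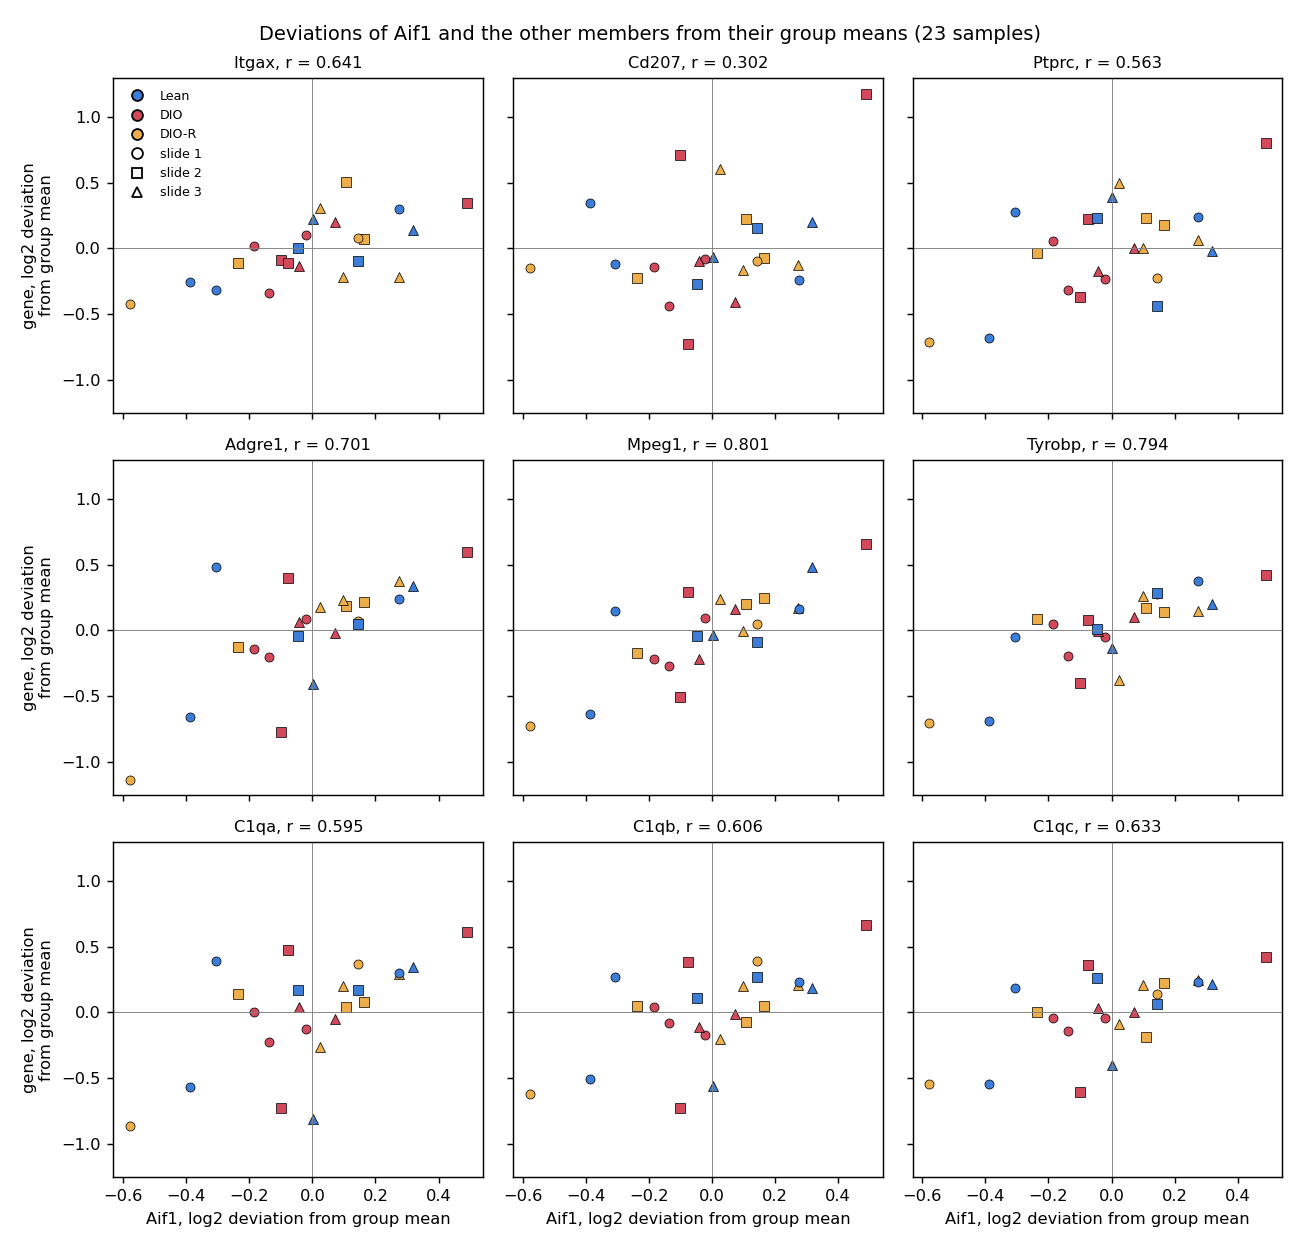
Deviation of Aif1 from its group mean (x axis, log2) against that of each other member (y axis, log2) in the 23 samples, with colour for the group, shape for the slide and r in the title. DIO 10 lies at the far right and DIO-R 6 at the far left of every panel, and Cd207 shows the loosest cloud.

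Within single groups 27 relations were tested, with exact two-sided permutation tests over all pairings and Benjamini-Hochberg adjustment over the 27. In DIO-R (n = 8) Adgre1 followed Aif1 with r = 0.948 (exact permutation p = 0.00176, adjusted p = 0.0475), the 1 relation that passed. Its Spearman rho was 0.762 (exact permutation p = 0.0368, adjusted p = 0.259), and r was 0.613 without DIO-R 6 and DIO-R 4, so the relation leans on those samples. In Lean the r of Adgre1 with Aif1 was 0.432 and in DIO 0.632 (exact permutation, adjusted p = 0.383 and 0.222), and -0.268 and 0.361 without the 2 samples farthest from the Aif1 median. Mpeg1 had r = 0.703 in Lean, 0.801 in DIO and 0.921 in DIO-R (exact permutation, adjusted p = 0.143, 0.0828 and 0.0828). Those values became -0.111, 0.412 and -0.0203 without the 2 samples farthest from the Aif1 median. Tyrobp had r = 0.843, 0.755 and 0.775 (exact permutation, adjusted p = 0.0828, 0.107 and 0.0916), and 0.788, 0.0831 and 0.534 without those samples. Cd207 had r = -0.172, 0.661 and 0.193 (exact permutation, adjusted p = 0.694, 0.155 and 0.694).

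Among the members themselves, r over the 45 pairs of group-centred values ranged from -0.186 to 0.969 with a median of 0.632. The C1q chains were closest to each other, at 0.937 to 0.969, and Adgre1 joined them at 0.858 to 0.895. Adgre1 and Mpeg1 had r = 0.898, and Tyrobp had 0.82 to 0.838 with the C1q chains. Itgax was nearer to Aif1 (0.641), Ptprc (0.632) and Mpeg1 (0.628) than to the C1q chains (0.198 to 0.206). Cd207 stood apart, with its highest r at 0.368, to Itgax, and values from -0.186 to -0.0899 with the C1q chains.

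**Figure D4:**
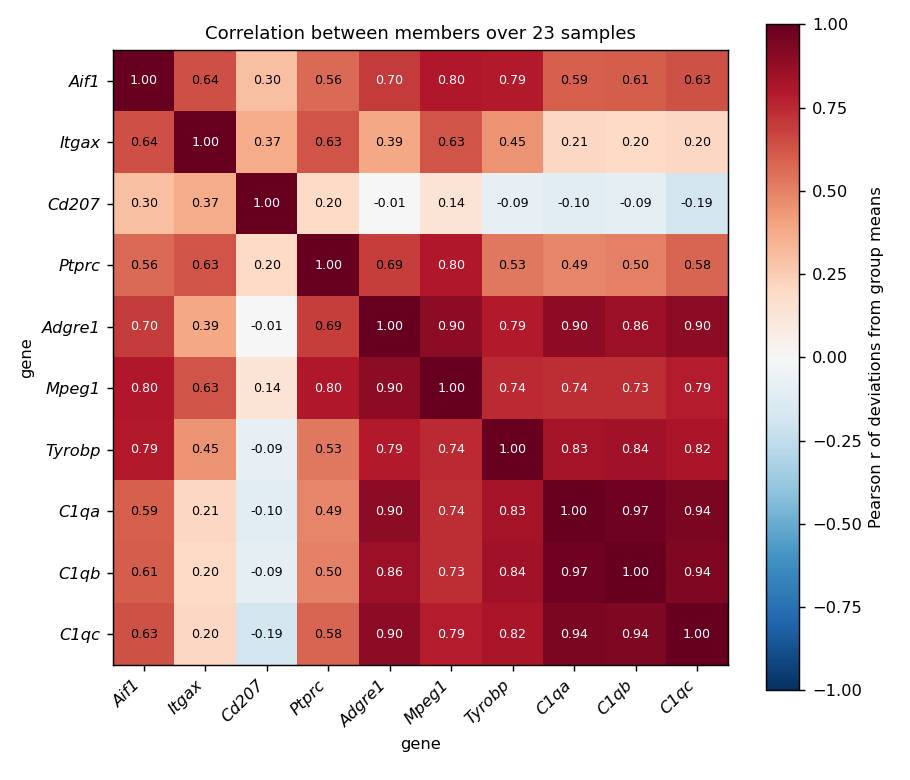
Pearson r between each pair of the 10 genes over 23 samples after subtracting group means; both axes list the genes and colour gives r from -1 to 1. The C1q chains, Adgre1, Mpeg1 and Tyrobp form a block of values from 0.735 to 0.969, and the row of Cd207 stays at or below 0.368.

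The 10 genes whose deviations were most like those of Aif1 over the 23 samples were Cd52 (r = 0.915), Coro1a (0.891), Ltb (0.86), Selplg (0.859), Tbc1d10c (0.855), an unnamed transcript of the array design (0.852), H2-Ab1 (0.846), Hcst (0.845), Rac2 (0.838) and Cst7 (0.838). Cd52 encodes a small surface protein of leukocytes, Coro1a an actin-binding coronin of blood cells, Selplg the ligand of P-selectin and Rac2 a GTPase of blood cells. Hcst encodes DAP10, an adaptor related to the product of Tyrobp. None of the 10 passed in any comparison in limma, and Cd52, for example, differed between DIO and Lean by 0.55 ± 0.18 (adjusted p = 0.339, limma). At the other end were an unnamed transcript of chromosome 5 (r = -0.82), Luc7l3 (-0.81), Pirb (-0.781), Acaa1b (-0.77) and Klhl21 (-0.762).

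Lists of whole cell types were summarised by the mean level of their genes in each sample. The mean of the 22 pan-leukocyte genes lay between -1.45 and -0.70 in Lean (median -0.91), between -1.04 and -0.06 in DIO (median -0.69) and between -1.43 and -0.59 in DIO-R (median -0.74). Of the 22, 20 were higher in DIO than in Lean, 6 of them and 1 of the lower genes at an unadjusted p under 0.05, with a median of 0.29. Group-centred Aif1 followed that mean with r = 0.845, the dendritic and Langerhans mean with 0.727, the macrophage mean with 0.667, the T cell and NK cell mean with 0.513 the Schwann cell mean with 0.563, the fibroblast mean with 0.537, the mast cell mean with 0.52, the endothelial mean with 0.503 and the erythrocyte mean with -0.177. With the pan-leukocyte mean as a covariate, a setting chosen after seeing the data, Aif1 differed between DIO and Lean by 0.75, Itgax by 0.49 and the C1q genes by -0.07 to 0.03.

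The 17 T cell and NK cell markers split 9 higher and 8 lower with a median of 0.00, and 2 had an unadjusted p under 0.05, both higher, the T cell genes Cd3g (0.95 ± 0.34, adjusted p = 0.401, limma) and Cd2 (0.86 ± 0.29, adjusted p = 0.368, limma). The 9 B cell markers had a median of -0.11, the 11 neutrophil markers -0.12 and the 9 mast cell markers 0.12. Mast cell markers were divided, with 5 higher and 4 lower, and 2 against 1 at an unadjusted p under 0.05. Cpa3 differed by 1.62 ± 0.77 (adjusted p = 0.554, limma) and Mcpt4 by 1.31 ± 0.53 (adjusted p = 0.458, limma). Hdc went the other way, at -0.60 ± 0.26 (adjusted p = 0.5, limma).

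Markers outside the leukocytes also differed in mean level between these groups, although none of them passed in limma. All 6 erythrocyte markers were higher in DIO than in Lean (median 1.13) and all 6 lower in DIO-R than in DIO (median -1.05). The erythrocyte mean lay between 0.69 and 2.55 in Lean, 2.03 and 3.80 in DIO and 0.89 and 2.75 in DIO-R. Of the fibroblast markers, 11 of 12 were higher in DIO than in Lean (median 0.27), and all 16 markers of differentiated keratinocytes were lower (median -0.44) and then higher in DIO-R than in DIO (median 0.43). Between DIO-R and DIO, all 12 skeletal muscle markers were lower (median -0.55), as were 9 of 10 adipocyte markers (median -0.72, 3 at an unadjusted p under 0.05 and 1 higher at that level), 9 of 10 endothelial markers (median -0.20) and 11 of 12 fibroblast markers (median -0.21), while all 9 basal keratinocyte markers were higher (median 0.21). The part of muscle, fat, endothelial and basal cell markers in the members' differences was not tested. These marker means were also used as covariates, again a choice made after seeing the data. With the erythrocyte mean Aif1 differed between DIO and Lean by 1.04, and with the fibroblast and keratinocyte means by 0.86. With the latter, Cd207 differed by 0.74, Itgax by 0.62, Adgre1 by 0.03 and the C1q genes by -0.13 to -0.04.

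**Figure D5:**
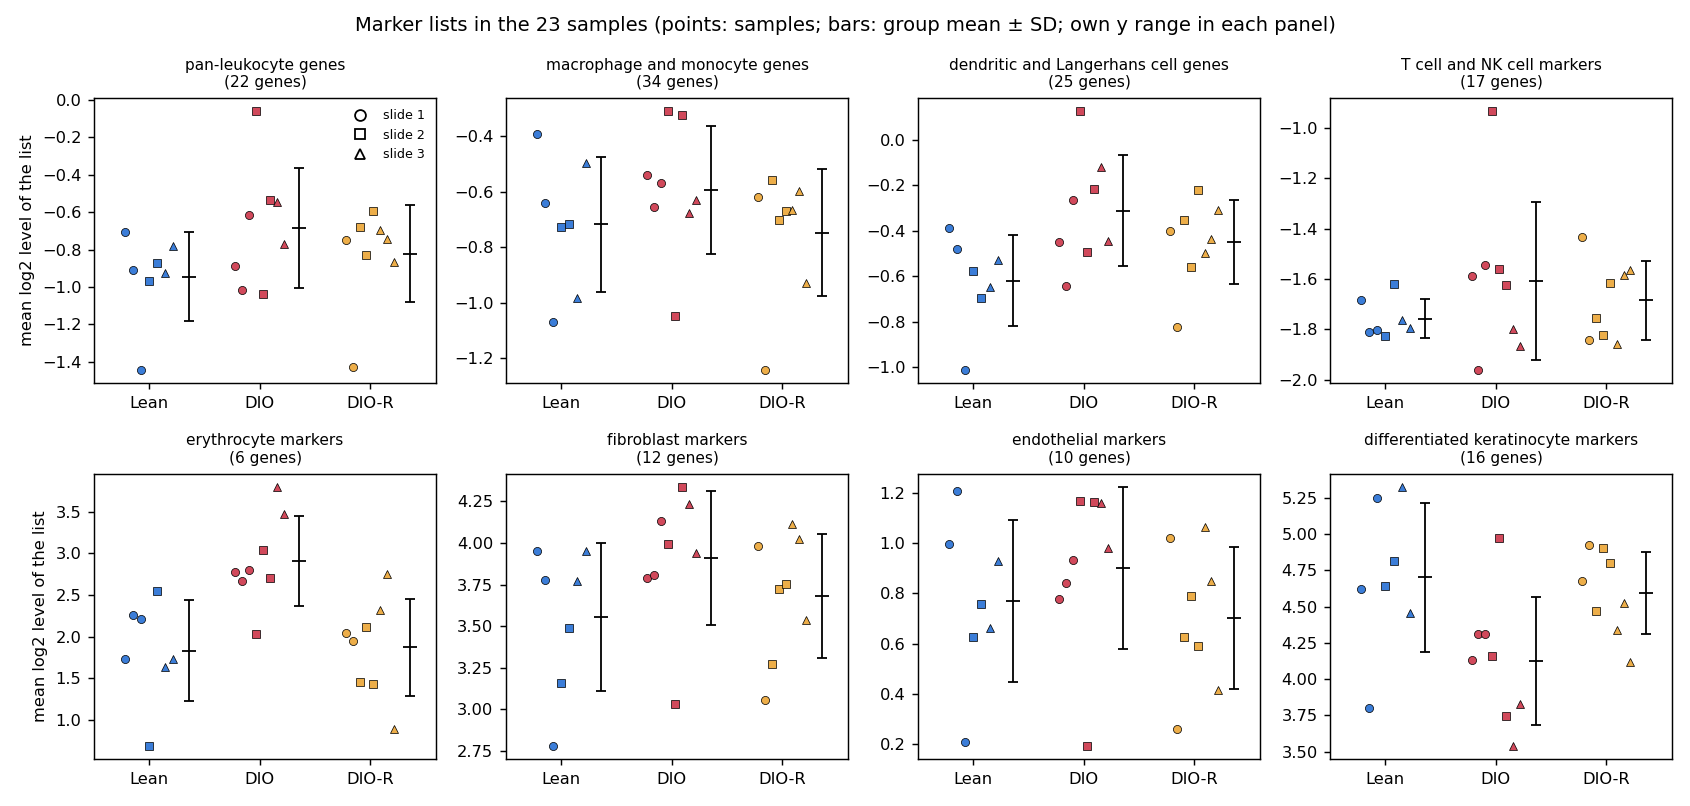
Mean log2 level (y axis) of 8 marker lists in each sample by group; shapes are the 3 slides and bars the group mean ± SD. Group means of erythrocyte markers are highest and those of differentiated keratinocyte markers lowest in DIO. DIO 10 tops the pan-leukocyte, macrophage, dendritic and T cell panels, the macrophage panel only narrowly.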

How the data were processed

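The deposited scanner intensity of each spot is background-subtracted per the file headers (Agilent Feature Extraction 10.10.1.1) and not equalised between arrays. Outlier flags and well-above-background flags are the scanner's, per the file headers. The authors' deposited value table is on a log2 scale, its normalization is not given in the sources used here, and it served as an alternative; its array medians lay between 7.63 and 7.64.

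From the intensities, log2 values minus each array's 75th percentile were computed, outlier and control spots left out and spots of a probe averaged. A gene took its brightest probe and was kept if that was well above background on at least 7 arrays. Symbols were updated through RefSeq accessions (GRCm38.p6). Groups were compared with limma 3.58.1 (lmFit, eBayes, two-sided, a mean per group) in R 4.3.3, with the files read through the R package data.table (version 1.17.8) and the fit checked on simulated data. Promoter searches and plots used Python 3.11.15 with pandas 2.3.3 and matplotlib 3.10.9.

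The members and all gene lists were chosen with earlier results of these data known. Named besides the members are, per list, at most 4 genes with the smallest p for DIO minus Lean and 2 for DIO-R minus DIO, and the 10 genes most and 5 least like Aif1. Arrays carry no read depth, and 7 or 8 samples in a group limit the precision. Alternatives were other background correction, scaling, probe choice, filter, blocks, weights, the deposited table, each array left out, and marker means as covariates. The covariates were chosen after seeing the data.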

Additional observations from a re-analysis of the deposited data

Results flagged for a closer look

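Single samples far from the rest of their group were looked for in 30 pairs of a gene and a group, and 3 were found; chance alone gives about 1 in 20 groups. Aif1 in DIO 10 lay at 1.79, with the next DIO sample at 1.37. Adgre1 in DIO-R 6 lay at -1.33, with the next sample at -0.32. Mpeg1 in DIO-R 6 lay at 0.53, with the next sample at 1.08.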

How the results depend on the processing

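The difference of Aif1 between DIO and Lean stayed between 0.75 and 1.04 in 42 settings. Both ends came from covariates chosen after seeing the data, the pan-leukocyte and the erythrocyte mean. With single arrays left out, Aif1 differed between DIO and Lean by 0.88 (without DIO 10) to 1.00 (without Lean 5). The count of other members that passed there, and of members that passed between DIO-R and DIO, was 0 in all 39 settings fitted. Between DIO-R and Lean the count was 0, and with single arrays left out 0 to 1. It was 1, Aif1, without DIO-R 6 and also without Lean 9, DIO 10 and DIO-R 6. With the pan-leukocyte covariate it was again 1, Aif1 (0.44, adjusted p = 0.018, limma). That covariate and the setting without Lean 9, DIO 10 and DIO-R 6 were chosen after seeing the data. The Lean levels of Aif1 entered its choice, so these passes are not independent of that choice.

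Differences of 6 members that had not passed changed sign in some settings, and 1 more, Cd207, when a single array was left out; the cause was not tested. For DIO minus Lean, C1qa was -0.112 and -0.0258, and C1qb -0.126 and -0.0699, with the fibroblast and keratinocyte and with the pan-leukocyte covariates, and C1qc -0.0434 with the former. For DIO-R minus Lean under the same covariates, Adgre1 was -0.0239 and -0.0725, Mpeg1 -0.0541 and -0.112, and Tyrobp -0.0366 and -0.0878. With the slide as a block Mpeg1 was -0.0188 and Tyrobp -0.000282. With single arrays left out, Cd207 ranged from -0.0313 to 0.11, Adgre1 from -0.0175 to 0.26, Mpeg1 from -0.0759 to 0.13 and Tyrobp from -0.0817 to 0.14.

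Replicate numbers are shared between groups, and the labels do not say whether they pair samples. Same-numbered samples showed no common deviation over all genes (correlations -0.368 to 0.335, above 0.1 in 2 of 5, 1 of 7 and 1 of 6 pairs). So few pairs cannot exclude a pairing, and the reported fit treats the samples as unpaired. With the replicate block, Aif1 differed between DIO and Lean by 0.89, 0 genes passed in that comparison in limma (1349 had an unadjusted p under 0.05), 4 passed between DIO-R and DIO and 9 between DIO-R and Lean, and 0 members passed in the last 2. For DIO-R minus Lean the block gave Adgre1 -0.0642, Mpeg1 -0.102 and Tyrobp -0.0675. Array weights gave 61 genes passing between DIO and Lean, the authors' deposited values gave 9, and the setting without DIO 6 gave 37. The reported fit gave 1, which was Aif1, the gene chosen by this difference, so that pass is no test of it. The correlations within groups rest on 7 or 8 samples each.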
